A study of Mus musculus with 6 samples.

Results

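Nuclei of the meninges that carry Slc47a1 were taken from single-nucleus RNA sequencing (snRNA-seq) of mouse brain and described by their genes, their number and their response to lysophosphatidic acid (LPA). C57BL/6 S-56 mice, with no transgene or gene deletion given in the labels or methods, received 5 µl of LPA or of vehicle (0.01% BSA in PBS) into the right lateral ventricle at P7, and whole brains without olfactory bulbs and cerebellum were collected at P15. The LPA concentration for these libraries is not given in the sources used here. Nuclei negative for the neuronal protein NeuN were sorted and 1 library was made per sample, which gave 3 LPA-injected libraries (LPA 1 to 3) and 3 vehicle-injected libraries (vehicle 1 to 3). The libraries held 48852970 to 65688644 unique molecular identifiers (UMIs), the deposited unit of count. Nothing in the labels says that the 3 libraries of a group came from 3 litters or days, so p-values measure the spread between these samples.

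Members were chosen by their own UMI counts. Of 60724 nuclei with at least 300 genes and at most 1% mitochondrial UMIs, a nucleus was kept if it had at least 2 UMIs of Slc47a1, at least 2 UMIs of Bnc2, Slc6a13 and Col1a2 together, at most 1 UMI of the mural genes Abcc9 and Atp13a5 together, at most 1 of the endothelial gene Flt1 and at most 1 of Tnr, a gene of the oligodendrocyte lineage. In all, 1384 nuclei met these conditions (102, 147 and 142 in LPA 1 to 3, and 233, 385 and 375 in vehicle 1 to 3). The same conditions without any UMI of Slc47a1 gave 3262 nuclei, termed Slc47a1-free meningeal nuclei, and 142 nuclei with 1 UMI were set in neither class.

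As background, the meninges are layered sheets of fibroblasts and blood vessels around the brain. Pial fibroblasts lie on the basement membrane of the brain surface, the arachnoid barrier is a cell layer sealed by junctions and rich in efflux pumps that separates cerebrospinal fluid from the dura, and the dura is the outer layer. Slc47a1 (MATE1) encodes an exporter that moves organic cations out of cells in exchange for protons and is best known from kidney and liver. LPA is a lipid in blood that acts on cells through G protein-coupled receptors, and injecting it into the ventricle models hydrocephalus after hemorrhage.

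Slc47a1 lies at chr11:61343401-61378345 on the minus strand of mm10 (GENCODE M21). Among meningeal nuclei its UMIs ranged from 0 to 32, with a median of 8 per member, and 122 members lay just inside the limit at 2 UMIs against 142 nuclei just outside it at 1 UMI. Of the 17165 Slc47a1 UMIs in all nuclei kept, 68.7% were in the members, which held 1.92% of all UMIs. This is a description only, since the members were chosen by these same UMIs. Nuclei without a UMI of Bnc2, Slc6a13 or Col1a2, which should lack the gene, had 2 or more Slc47a1 UMIs in 31 of 47354 cases (0.0655%, exact 95% binomial interval 0.0445% to 0.0929%, counting error only) at a median depth of 4412 UMIs, while 28.9% of meningeal nuclei did at a median of 3169.5. At least 1 UMI was found in 1.68% of the nuclei without those genes (interval 1.57% to 1.80%). Pooled by group it was 1.35% in LPA and 2.01% in vehicle nuclei, and 2 or more UMIs were found in 0.0515% and 0.0789%. The part of this background in the comparisons of LPA and vehicle was not tested.

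**Figure D1:**
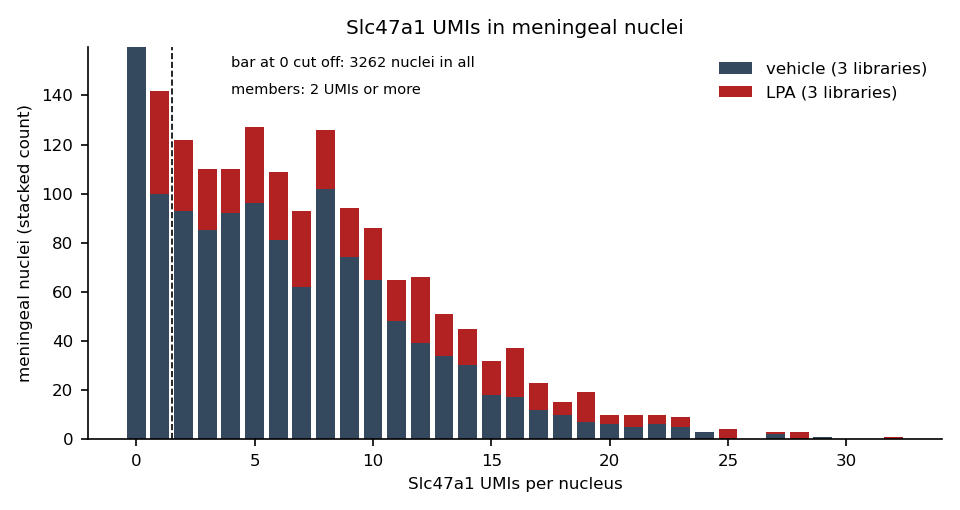
Number of meningeal nuclei (y axis, stacked by group) at each count of Slc47a1 UMIs (x axis); the dashed line marks the limit for members. The bar at 0 is cut off and holds 3262 nuclei, and counts between 1 and 10 hold 86 to 142 nuclei each.

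Of the gate genes, Bnc2, a zinc finger protein gene of fibroblasts, carried the choice. It was detected in 99.8% of members (median 16 UMIs), the extracellular matrix gene Col1a2 in 56.2% and the GABA transporter gene Slc6a13 in 2.60%. Slc47a1-free nuclei entered more through the other genes of the gate, with Bnc2 in 42.5% to 51.3% and Slc6a13 in 56.8% to 72.5% of nuclei over the 6 libraries. With Bnc2 alone as the gate the members made up 1.39 ± 0.180% of nuclei in LPA and 2.99 ± 0.136% in vehicle libraries (SD, n = 3), close to the values with all 3 genes below, while the Slc47a1-free class shrank to 1.27% and 2.25%.

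Other cell types were present among the members and have to be stated before the results. The members were clustered on their own and gave 8 clusters. Clusters 1, 2 and 3 held 569, 252 and 210 nuclei with under 5% called doublets by Scrublet. Cluster 4 (128 nuclei) led with astrocyte genes such as Slc1a2, cluster 5 (95) with neuronal genes such as Reln, and cluster 6 (80) with oligodendrocyte genes such as Mbp. Scrublet called 87.5%, 96.8% and 97.5% of their nuclei, and their median depth was 5996, 8446 and 8499.5 UMIs against 2969.5 to 3636.5 in clusters 1 to 3. Cluster 7 (25 nuclei, 52.0% called) led with myeloid genes and cluster 8 (25 nuclei, 24.0% called) with genes of dividing cells such as Top2a, together with Lama1 and Slc6a20a. Over all members Scrublet called 22.3%, against 19.7% of Slc47a1-free nuclei. The 1031 members of clusters 1 to 3 were therefore also analysed apart, a choice made after seeing the data. Of the member barcodes none occurred as a member in 2 libraries, and 14 were kept in another library as well.

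**Figure D2:**
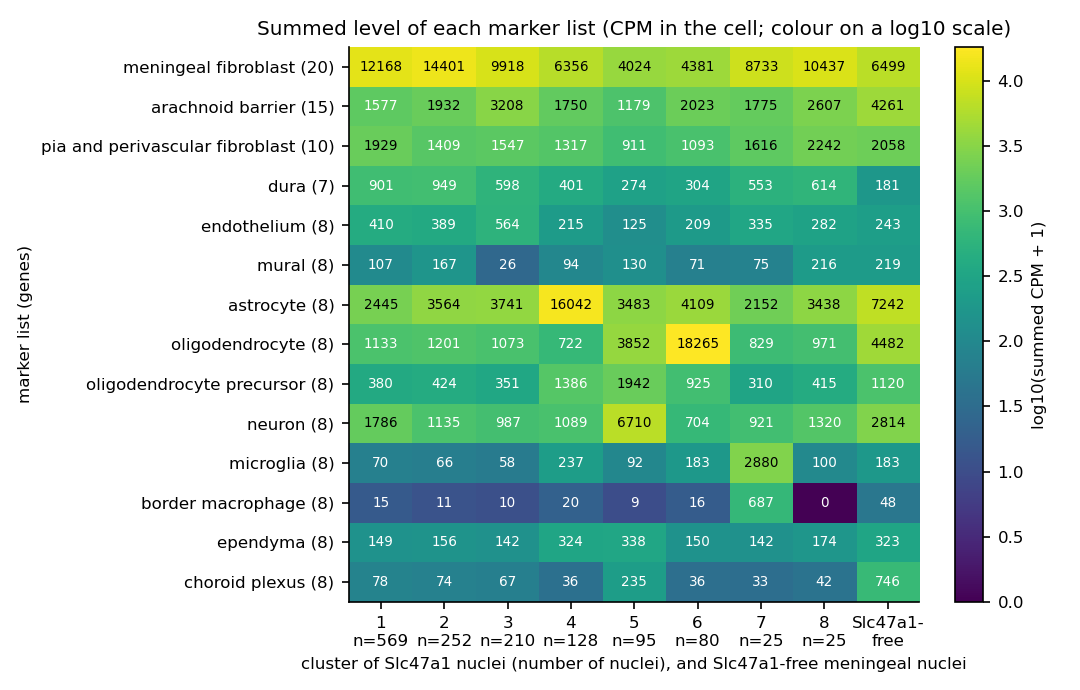
Summed UMIs per 1e6 UMIs (CPM) of each marker list (y axis, number of genes in brackets) in the 8 clusters of Slc47a1 nuclei and in Slc47a1-free meningeal nuclei (x axis), with colour on a log10 scale. The astrocyte list reaches 16042 CPM in cluster 4, the oligodendrocyte list 18265 CPM in cluster 6, and the meningeal fibroblast list 14401 CPM in cluster 2.

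The label of meningeal border cells was set against 4 marker lists without the genes of the rule. The 20 meningeal fibroblast genes summed to 9233 CPM in members and 6499 CPM in Slc47a1-free nuclei, and all 20 had a UMI in members. Slc4a10 alone gave 3400 CPM of the sum in members. In the comparison of the classes below, 5 of these 20 genes were higher and 9 lower (median log2 difference -0.72). The 5 higher included Slc26a7 and Adamtsl3, which are also among the genes named below for the size of their difference. The 9 lower included the fibroblast genes Pdgfra, Igf2 and Slc22a6, so that the higher sum does not hold for most genes of the list. Over all genes tested 4.54% were higher and 6.69% lower. The 15 arachnoid barrier genes were all detected too, at 1874 CPM in members and 4261 CPM in Slc47a1-free nuclei, of which the prostaglandin D synthase gene Ptgds gave 2093 CPM. Of the 10 genes of pia and perivascular fibroblasts 9 had a UMI, Ngfr being at 0, with a sum of 1492 against 2058 CPM. The 7 dura genes summed to 632 against 181 CPM. In nuclei outside the meningeal classes these lists summed to 832 CPM (fibroblast), 1195 CPM (arachnoid barrier, of which Tjp1 gave 736 CPM against 500 CPM in members), 641 CPM (pia) and 56.5 CPM (dura). No layer name was given to the members here. The 8 mural genes, which exclude the 2 of the rule, summed to 103 CPM in members (Ebf1 gave 76.0 CPM, Acta2 and Higd1b were at 0) and to 236 CPM in nuclei outside the meningeal classes, the 8 endothelial genes to 334 CPM (Abcb1a gave 200 CPM) against 284 CPM, and border macrophage genes summed to 26.5 CPM with Pf4 at 0. Genes of brain cells were higher, with 4856 CPM for the 8 astrocyte genes (Gpc5 the most abundant), 3473 CPM for the 8 oligodendrocyte genes (Mbp) and 2063 CPM for the 8 neuronal genes (Meg3), each above the arachnoid barrier, pia and dura sums. In nuclei outside the meningeal classes the astrocyte, oligodendrocyte and neuronal lists summed to 5530, 7703 and 5257 CPM. In clusters 1 to 3 these 3 lists summed to 2984, 1135 and 1462 CPM, and the meningeal fibroblast genes to 12150 CPM.

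The clusters of members differed in which of these genes they carried, as a description only since they were found from the same counts. Cluster 1 led with Ism1, the collagen genes Col1a1 and Col14a1, the growth factor binding protein gene Igfbp5 and Cemip. Cluster 2 led with the muscarinic receptor gene Chrm3, Kctd8, Adamtsl1 and Adamtsl3. Cluster 3 led with Msln (mesothelin), the integrin gene Itgb4, Dapl1, Prg4 (lubricin), the retinol receptor gene Stra6 and Cdh1 (E-cadherin), and had the highest arachnoid barrier sum of clusters 1 to 3 at 3208 CPM, against 1577 and 1932 CPM. The Slc47a1-free nuclei held a cluster of 264 nuclei that led with several of the same genes (Dapl1, Prg4, Msln, Itgb4) together with the peptidase gene Dpp4, and 1 nucleus of it was a member. In this clustering of all meningeal nuclei together, 3 of 14 clusters were mostly members, and they held 82.9% of members, 57.0% of the nuclei with 1 Slc47a1 UMI and 3.43% of Slc47a1-free nuclei. The Slc47a1-free nuclei also spread over clusters that led with genes of ependyma (Dnah12), bone (Bglap), choroid plexus (Ttr) and astrocytes (Slc1a2), so that they are no single cell type.

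The first comparison asked which other genes went with Slc47a1 among meningeal nuclei. UMIs were summed per library and class and fitted with edgeR, with library as a block. Since the classes were split on a gene of the same nuclei, the result is a description of the members, with no p given. Of 12577 genes tested, 571 were higher and 842 lower in Slc47a1 nuclei by at least 1 on the log2 scale at an adjusted p of 0.05, which is 4.54% and 6.69%, and 11.2% in all. Of 6 choroid plexus genes tested 0 were higher and 6 lower (median -3.05, sum 86.8 against 746 CPM). For ependyma 0 were higher and 3 lower of 7, and for astrocytes 0 and 3 of 8. Lists of oligodendrocytes, their precursors, neurons and microglia had 0 and 0 of 8 each. The part of other cell types in the lower calls was not tested. Members were deeper than Slc47a1-free nuclei in every library (median 3108 to 4730 against 2577.5 to 3809.5 UMIs). With each member paired to the Slc47a1-free nucleus of nearest depth in its library, 534 were higher and 774 lower. The counts were 839 and 2119 with members of clusters 1 to 3 alone, 676 and 1536 without Scrublet doublets, and 386 and 544 with Bnc2 alone as the gate.

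Apart from Slc47a1, the higher gene of largest difference was Slc47a2, the neighbouring gene for a related cation exporter. It lay 541 bases from Slc47a1 at chr11:61301631-61342860 on the same strand. Its normalized level was 280, 366 and 311 CPM in the members of LPA 1 to 3 and 214, 280 and 288 CPM in those of vehicle 1 to 3, and 1.59 to 3.05 CPM in Slc47a1-free nuclei. The classes did not overlap in any library, at 126-fold higher (1734 UMIs against 27). How reads of the 2 related neighbours were divided in the counting was not tested. The anion transporter gene Slc26a7 was at 364 ± 31.8 CPM in members and 9.97 ± 2.74 CPM in Slc47a1-free nuclei (SD, n = 6), and Slco4a1, for an organic anion transporter, at 77.9 ± 10.0 against 2.11 ± 1.29 CPM. Slc9b2, for a sodium-proton exchanger, was higher by 5.58 on the log2 scale. Every library showed the same direction for each of them, as the rule for naming genes required.

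The other higher genes chosen for size (15 in all, with the same direction in 6 of 6 libraries) were of mixed function. Adamtsl3, an extracellular matrix protein gene, rested on 8273 UMIs in members and stood at 1334 ± 200 CPM against 43.2 ± 12.9 CPM. The tetraspanin gene Tspan11 was at 274 ± 45.3 against 6.86 ± 2.88 CPM and the homeobox gene Vsx1 at 51.4 ± 6.67 against 1.54 ± 1.25 CPM. Genes of enzymes among them were Cyp2f2 (a cytochrome P450), Xdh (xanthine dehydrogenase) and Acpp (an acid phosphatase), higher by 5.72, 4.80 and 4.71 on the log2 scale. The co-chaperone gene Dnajc5b was higher by 4.98, and Gm37853, Gm765, Gm37184 and Gm37754, whose functions are not described here, by 5.21 to 6.07. Of all UMIs in the nuclei kept, 42.8% to 64.9% of those of Slc47a2, Vsx1, Slc26a7, Tspan11, Slco4a1 and Adamtsl3 were in the members, and the nuclei outside the meningeal classes had 0.530 (Vsx1) to 27.9 CPM (Adamtsl3) of these 6 genes.

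**Figure D3:**
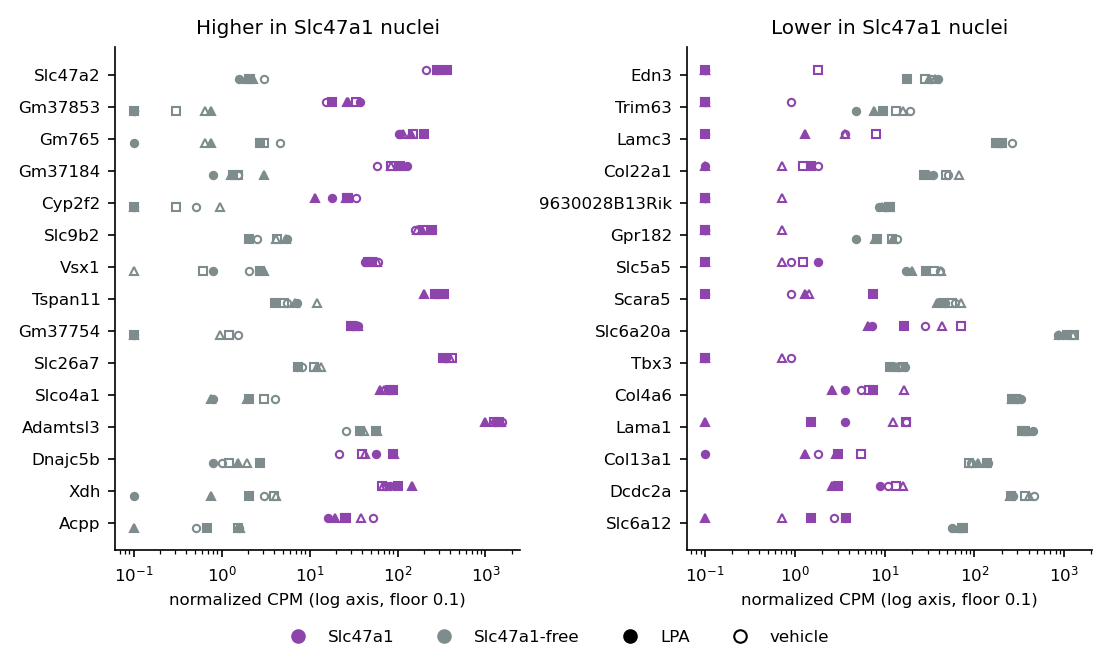
Normalized CPM (x axis, log scale with values under 0.1 drawn at 0.1) of the 15 genes most higher and the 15 most lower in Slc47a1 nuclei (y axis), 1 point per library and class, with filled points for LPA and open points for vehicle. For Slc47a2 every member library lies above 213 CPM and every Slc47a1-free library below 3.1 CPM.

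Levels were also taken by the number of Slc47a1 UMIs, the count that chose the members, as a description only. From meningeal nuclei with 1 UMI through those with 2, 3 to 5, 6 to 10 and 11 or more, Slc47a2 was at 56.3, 104, 150, 274 and 414 CPM and Slc26a7 at 160, 306, 314, 371 and 416 CPM. The bicarbonate transporter gene Slc4a10 went from 1468 to 3762 CPM over the same bins. Cdh1 had its lowest levels at the other end, with 379 CPM at 2 UMIs and 152 CPM at 11 or more, and Bnc2 was between 3766 and 4324 CPM in the 4 bins of members. The median depth was 3266 UMIs in nuclei with 1 Slc47a1 UMI, 3206 with 2 and 4000 with 11, and the part of depth in these levels was not tested.

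The 15 lower genes chosen for size included laminin and collagen genes. The laminin gene Lama1 was at 8.61 ± 7.87 CPM in members and 380 ± 34.0 CPM in Slc47a1-free nuclei (SD, n = 6), Lamc3 at 2.74 ± 3.02 against 200 ± 31.9 CPM and the type IV collagen gene Col4a6 at 7.06 ± 5.00 against 285 ± 27.1 CPM. The imino acid transporter gene Slc6a20a stood at 28.6 ± 24.6 against 1093 ± 193 CPM and the betaine and GABA transporter gene Slc6a12 at 2.03 ± 1.53 against 68.1 ± 6.77 CPM. Edn3 (endothelin 3) had 3 UMIs in all members against 386, and Trim63, 9630028B13Rik and Gpr182 had 1 UMI each in members. The collagen genes Col22a1 and Col13a1, the iodide transporter gene Slc5a5, the ferritin receptor gene Scara5, the transcription factor gene Tbx3 and Dcdc2a made up the rest of the 15 lower genes, by 5.08 to 5.48 on the log2 scale. In clusters 1 to 3 the 15 genes together summed to 32.3 CPM, against 78.6 CPM in all members and 2799 CPM in Slc47a1-free nuclei.

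Among gene lists, the transporters divided members from Slc47a1-free nuclei in both directions. Of 36 transporter genes 34 were tested, 11 were higher and 14 lower, with a median log2 difference of -0.26 against -7.19e-05 over all genes. Among all genes tested 4.54% were higher and 6.69% lower. Higher were the vitamin C carrier Slc23a2 (2.95), the sulfate carrier Slc26a2 (4.52), the amino acid carrier Slc38a2 (2.87), the carnitine carrier Slc16a9 (4.32) and the efflux pumps Abcg2, Abcb1a and Abcc4 (2.27, 2.05 and 2.00 on the log2 scale). Lower were the cystine carrier Slc7a11 (-4.36), the sulfate and citrate carriers Slc13a4 and Slc13a3 (-3.29 and -3.82) and the organic anion and cation carriers Slc22a6, Slc22a8 and Slc22a2 (-4.44, -2.95 and -4.42).

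The arachnoid barrier list was divided too, with 4 genes higher and 5 lower of 14 tested (median -0.64), against 4.54% and 6.69% of all genes tested. Cdh1 (1.42) and Klf5 (1.09) were higher with the 2 efflux pumps, while Dpp4 (-2.37), Ptgds (-3.72), the retinoic acid synthesis gene Aldh1a2 (-4.85), Tjp1 (-1.08) and Slc22a2 were lower. Of 30 genes for junctions and adhesion 25 were tested, with 2 higher (Cdh11 at 1.75 and Cdh1) and 2 lower (Tjp1 and Ocln at -1.15), a median of -0.06 and no difference past the limit for Cldn11 (143 against 147 CPM).

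Of 54 genes for collagens and matrix, all tested, 8 were higher and 25 lower, with a median of -0.89, where calls over all genes were also more often lower (6.69%) than higher (4.54%). Higher were Thbs1 (3.29), Col14a1 (3.04), Col8a1 (2.93), Col12a1 (2.46), Col8a2 (2.39), Col25a1 (2.08), Col6a2 (1.64) and Col6a1 (1.03), while the type IV collagen genes Col4a1, Col4a2, Col4a5 and Col4a6 were all lower (-1.02 to -5.15). Of 9 tested genes of pia and perivascular fibroblasts 1 was higher (Cdh11 at 1.75) and 7 lower (median -1.71), with Apod at -2.70 and Col18a1 at -3.78. In the dura list 4 of 6 genes tested were higher (Fxyd5 at 3.34, Alpl at 3.18, Mgp at 2.47 and Foxc2 at 1.58) and Postn was lower (-3.58).

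Signalling and transcription factor genes were called in both directions, where 4.54% of all genes tested were higher and 6.69% lower. Of 38 tested genes of BMP, TGF-beta and Wnt signalling 12 were higher and 12 lower (median 0.40), the former with the Wnt amplifier gene Rspo3 (3.81) and the BMP regulator gene Bmper (2.46), the latter with Wnt4 (-4.38), Wnt5a (-3.24) and Lef1 (-3.23). Of 33 meningeal transcription factor genes tested, 15 were higher and 7 lower (median 0.42), with Lmx1b (3.78), Tbx15 (2.78), Foxp2 (2.37) and Foxp1 (2.08) among the higher and Tfap2a (-4.32), Ebf2 (-2.24) and Tfap2b (-2.13) among the lower. In retinoic acid metabolism and response 3 of 14 tested genes were higher and 4 lower (median 0.48), with Dhrs3 at 1.81, Cyp26b1 at -4.33 and Aldh1a2 as above. Of 27 growth factor genes 5 were higher, including Kitl (3.02), Igfbp5 (2.69) and Egfr (2.15), and 8 lower, including Pdgfra (-2.84) and Igf2 (-2.33).

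Glucocorticoid receptor and target genes had 3 of 18 tested genes higher, namely Tsc22d3 (2.68), the co-chaperone gene Fkbp5 (1.60) and the mineralocorticoid receptor gene Nr3c2 (1.55), and Errfi1 (-2.47) and Sgk1 (-1.64) lower, with a median of 0.29. In the list of cytokines and inflammation 3 of 21 were higher and 8 lower (median -0.38), with Il34 at -4.53 and the decoy receptor gene Tnfrsf11b at 2.62. Counts for Yap and Tead genes were 0 higher and 2 lower of 15, and for cell division 0 and 0 of 8. Among all genes tested 4.54% were higher and 6.69% lower.

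LPA receptors were sparse in the members. Lpar1 was at 82.5, 45.8 and 91.8 CPM in LPA 1 to 3 and at 117, 72.2 and 56.2 CPM in vehicle 1 to 3, which overlapped. Lpar6 lay between 12.6 and 24.6 CPM and Lpar4 between 4.43 and 9.83 CPM, and Lpar2, Lpar3 and Lpar5 had 0 to 5 UMIs per library. Enpp2, which encodes the LPA-producing enzyme autotaxin, was at 239, 174 and 315 CPM in LPA and at 263, 249 and 241 CPM in vehicle libraries. Lpar1 was lower in members than in Slc47a1-free nuclei by 2.25 and Enpp2 by 1.31 on the log2 scale. Of 9 tested genes of LPA receptors and metabolism 3 were lower and 0 higher (median -0.03), against 6.69% and 4.54% of all genes tested.

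Slc47a1 nuclei made up a smaller part of the nuclei after LPA. They were 1.20%, 1.43% and 1.56% of nuclei kept in LPA 1 to 3 and 2.88%, 3.10% and 3.04% in vehicle 1 to 3. The groups did not overlap, with means of 1.40 ± 0.184% and 3.01 ± 0.118% (SD, n = 3), a 2.15-fold lower share (two-sided exact permutation test, p = 0.1, the smallest that 3 against 3 can give). Slc47a1-free meningeal nuclei were 3.38 ± 0.283% against 6.96 ± 0.590%, 2.06-fold lower (exact permutation p = 0.1). Members of clusters 1 to 3 alone were 1.02 ± 0.102% against 2.25 ± 0.102%, 2.20-fold lower (exact permutation p = 0.1).

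Within the meningeal nuclei the part of Slc47a1 nuclei differed by less than the spread between libraries. It was 27.6%, 26.8% and 30.7% in LPA and 30.5%, 29.6% and 28.0% in vehicle libraries, which overlapped (28.3 ± 2.06% against 29.3 ± 1.24%, exact permutation p = 0.5). With Bnc2 alone as the gate it was 50.4 ± 3.67% against 54.7 ± 2.76%, which overlapped too (exact permutation p = 0.3), a difference of -4.27 percentage points against -1.01. Without Scrublet doublets the values were 27.4 ± 0.553% and 28.7 ± 0.469% and did not overlap (exact permutation p = 0.1). Shares are relative to the NeuN-negative nuclei sorted and kept, so that fewer of these cells and more of others cannot be told apart. The paper proposes that meningeal layers are hard to take from hydrocephalic brains, which could possibly account for its fewer vascular cells. Such a loss would also lower these shares and was not tested here. The mitochondrial limit removed 12.5% to 16.4% of otherwise fitting Slc47a1 nuclei in LPA and 3.75% to 8.63% in vehicle libraries, and without it the shares were 1.58% and 3.05%. The part among meningeal nuclei was then 23.6%, 24.2% and 27.5% in LPA and 28.1%, 27.7% and 26.7% in vehicle libraries, which overlapped.

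**Figure D4:**
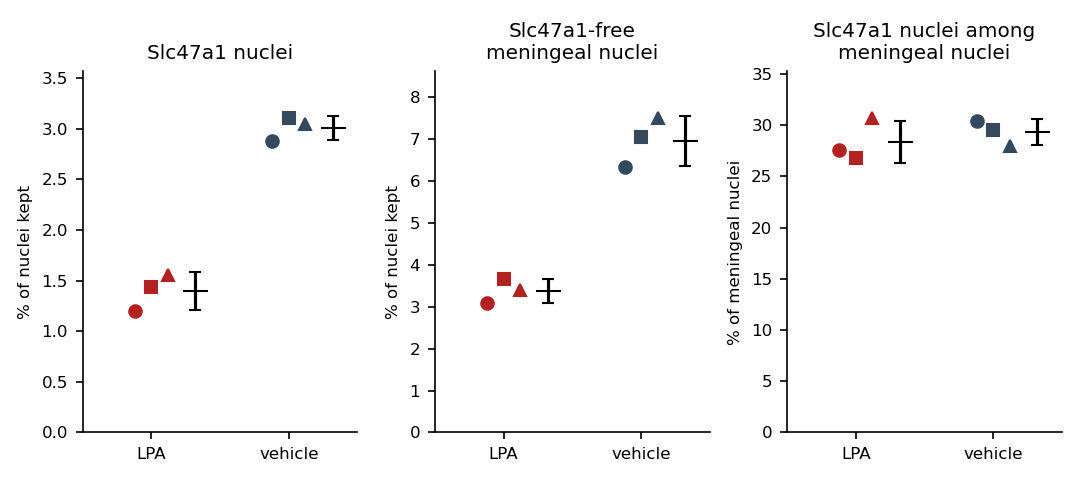
Share of Slc47a1 nuclei and of Slc47a1-free meningeal nuclei among all nuclei kept, and of Slc47a1 nuclei among meningeal nuclei (y axes in %), for LPA and vehicle libraries (x axis). Each symbol is 1 library, the bar is the mean and its whisker the SD (n = 3); the groups are apart in the first and second plots and overlap in the last.

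The response of the members to LPA was tested on UMIs summed per library with edgeR's quasi-likelihood test and Benjamini-Hochberg adjustment over all genes tested. Slc47a1 itself, which chose the members, was at 2149, 2170 and 1532 CPM in LPA and at 1882, 1887 and 1885 CPM in vehicle libraries, which overlapped. Of 10383 genes 26 were called differentially expressed genes (DEGs) where the adjusted p was under 0.05 and the log2 fold-change 0.25 or more in either direction (0.25%), 14 higher (0.135%) and 12 lower (0.116%) after LPA. With a term for sex 9 genes were called, and without LPA 1 or without vehicle 3 there were 5 each. Members were deeper in LPA libraries (median 3917 to 4730 UMIs) than in vehicle libraries (3108 to 3789), without overlap. Their median mitochondrial share was lower, at 0% to 0.0218% in LPA and 0.0338% to 0.0422% in vehicle libraries, also without overlap. Slc47a1-free nuclei differed in the same directions without overlap. The part of depth and of mitochondrial share in the calls was not tested.

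Rhoj, Cemip, Morrbid and Col8a1 had the lowest p among the DEGs that rose. Rhoj, for a small GTPase, was at 244, 237 and 233 normalized CPM in LPA and at 133, 125 and 127 CPM in vehicle libraries, 1.86-fold higher (log2 0.89 ± 0.11 SE, edgeR adjusted p = 0.00306). Cemip, whose protein degrades hyaluronan, was at 286, 231 and 262 CPM in LPA and at 124, 141 and 139 CPM in vehicle libraries (log2 0.94 ± 0.12, edgeR adjusted p = 0.00372). The groups were apart for both genes, by more than their own range. The long noncoding RNA Morrbid was at 214, 236 and 222 CPM in LPA and at 120, 115 and 130 CPM in vehicle libraries (log2 0.88 ± 0.11, edgeR adjusted p = 0.00372). Col8a1, a short-chain collagen gene, was at 437, 552 and 452 CPM in LPA and at 290, 297 and 242 CPM in vehicle libraries (log2 0.80 ± 0.12, edgeR adjusted p = 0.0196). Of the 20 alternatives 16 called Col8a1, with log2 fold-changes between 0.69 and 0.86. The call was lost without LPA 1, vehicle 1 or vehicle 3, and with a term for sex (edgeR adjusted p = 0.0554).

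The further DEGs that rose had log2 fold-changes from 0.53 to 1.24, without overlap of the groups, which the rule for naming genes required for all but Slit2 and Stra6. They were Col14a1, a fibril-associated collagen gene (108 ± 9.27 against 48.5 ± 13.8 CPM), Adamts5, an aggrecan-cleaving protease gene (159 ± 26.5 against 72.1 ± 26.0 CPM), Pdgfc, a growth factor gene (195 ± 33.3 against 118 ± 6.99 CPM), Slit2, a guidance ligand gene (2125 ± 135 against 1471 ± 87.6 CPM), and Stra6, the retinol receptor gene (64.4 ± 17.0 against 29.3 ± 2.42 CPM). Sp100, a gene of nuclear bodies, Pik3ap1, an adaptor gene of phosphoinositide 3-kinase, Ide, for the insulin-degrading enzyme, Abtb2 and Lhfpl2 completed them. Of the 20 alternatives, 6 called Ide, 8 each Lhfpl2 and Pdgfc, 10 Slit2, 12 each Col14a1 and Stra6, 13 each Adamts5, Sp100 and Abtb2, and 15 Pik3ap1, and Ide was not called on leaving out any 1 library. Col14a1, Ide and Lhfpl2 were not called in clusters 1 to 3. Their lowest log2 fold-changes over the 20 alternatives were 0.89, 0.74 and 0.46. Slit2 and Stra6 lay outside the 12 genes named by rule and were chosen after their values were seen.

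The DEG of lowest p fell. Pde7b, which encodes a phosphodiesterase for cyclic AMP, was at 548, 546 and 485 CPM in LPA and at 1069, 1041 and 1122 CPM in vehicle libraries, 2.05-fold lower (log2 -1.03 ± 0.11 SE, edgeR adjusted p = 0.00100). Adamts9, a protease gene of the matrix, was at 84.9, 86.8 and 93.1 CPM in LPA and at 180, 193 and 192 CPM in vehicle libraries (log2 -1.09 ± 0.12, edgeR adjusted p = 0.00155). No LPA library reached the lowest vehicle library for these genes.

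Of the 20 glucocorticoid receptor and target genes 17 were tested, 0 were higher and 2 lower, with a median log2 fold-change of -0.19 against 0.0020 over all genes tested. Of all genes tested in members 0.135% were higher and 0.116% lower. Zbtb16, a transcription factor gene induced by glucocorticoids, was at 270, 296 and 175 CPM in LPA and at 592, 458 and 518 CPM in vehicle libraries (log2 -1.09 ± 0.17, edgeR adjusted p = 0.0177). Fkbp5, for a co-chaperone of the glucocorticoid receptor, was at 516, 573 and 362 CPM in LPA and at 849, 848 and 866 CPM in vehicle libraries (log2 -0.82 ± 0.14, edgeR adjusted p = 0.0271). LPA 3 was the lowest library for both genes, and the groups did not overlap. With a term for sex Zbtb16 was called and Fkbp5 was not (edgeR adjusted p = 0.0735). Leaving out LPA 1, vehicle 1 or vehicle 3 ended the call of Zbtb16, and leaving out LPA 1 or any of the vehicle libraries that of Fkbp5 (highest edgeR adjusted p over the 20 alternatives 0.110 for Zbtb16 and 0.152 for Fkbp5). Sult1a1 (-0.95, edgeR adjusted p = 0.147) and the receptor gene Nr3c1 (0.35, edgeR adjusted p = 0.531) did not pass. The Slc47a1-free nuclei of the same libraries had 0 higher and 4 lower of 19 tested, with a median of -0.33, against 135 higher and 71 lower of 12624 genes (1.63% in all) and a median of 0.0015 over all genes.

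The other DEGs that fell were Robo2, a receptor gene for Slit proteins (183 ± 22.2 against 314 ± 30.1 CPM), the transcriptional regulator gene Lmo4 (300 ± 10.2 against 465 ± 22.0 CPM), the gap junction gene Gjb6 (57.9 ± 2.85 against 111 ± 13.1 CPM), Kctd8 (66.8 ± 14.0 against 132 ± 18.1 CPM), Thsd7b, Adarb2, Slc6a20a and Lama1. Gjb6 and Thsd7b were called under 11 of 20 alternatives each, not in clusters 1 to 3 nor without Scrublet doublets, Kctd8 under 13, Robo2 under 14 and Lmo4 under 15. Over these alternatives the log2 fold-change lay between -1.09 and -0.81 for Gjb6 and between -1.32 and -0.30 for Thsd7b. Lama1 was called under 5 of the 14 alternatives where it was tested, and on leaving out 1 library under 0 of 4, and Slc6a20a under 10 of 18. Adarb2 was also a leading gene of a cluster with neuronal genes, at 682 CPM in nuclei outside the meninges against 131 CPM in members. Adarb2 was called under 9 of 20 alternatives, not in clusters 1 to 3 nor without Scrublet doublets, and stood at -0.19 in cluster 1 (edgeR adjusted p = 0.924). Slc6a20a was at 7.07, 16.2 and 6.38 CPM in LPA and at 27.7, 69.4 and 42.2 CPM in vehicle libraries, and Lama1 at 3.54, 1.47 and 0 CPM and at 17.0, 16.9 and 11.9 CPM. Both belong to the 15 genes above that were lower in members than in Slc47a1-free nuclei. Those 15 genes together were at 28.2 ± 13.1 CPM in the members of LPA and at 100.1 ± 25.6 CPM in those of vehicle libraries, while the Slc47a1-free nuclei were 3.38% and 6.96% of nuclei, and their part in the fall of Slc6a20a and Lama1 was not tested. Cluster 8, with 25 members, had 39.4 CPM of the 15 genes in LPA and 1910 CPM in vehicle libraries, and clusters 1 to 3 had 18.1 and 40.4 CPM. In clusters 1 to 3 neither gene passed the filter on low counts.

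**Figure D5:**
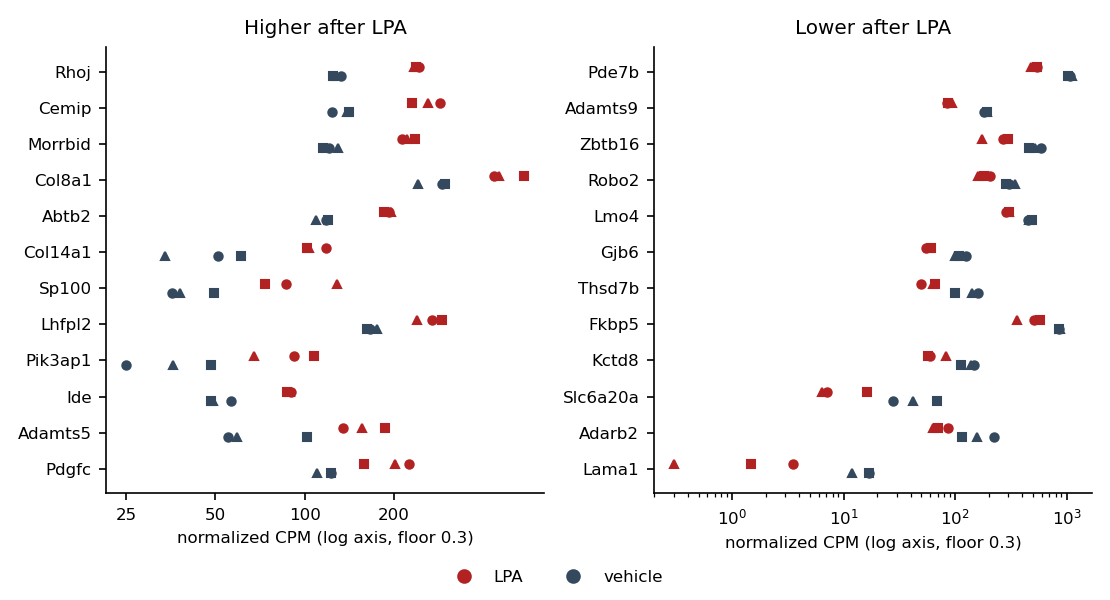
Normalized CPM (x axes, log scale, values under 0.3 drawn at 0.3) of the 12 genes of lowest p that were higher and the 12 that were lower after LPA in Slc47a1 nuclei (y axes), 1 point per library, LPA in red and vehicle in dark blue. The groups do not overlap for any of the 24 genes, since only genes without overlap were chosen. Lama1 lies under 4 CPM in LPA and at 11.9 to 17.0 CPM in vehicle libraries.

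The DEGs were then followed in the members of clusters 1 to 3, without clusters 4 to 7 and without cluster 8 of dividing nuclei (meningeal fibroblast sum 10437 CPM, against 9918 CPM in cluster 3), where the test called 55 of 7885 genes (0.698%), of which 18 were among the 26. Cluster 1 alone, the largest, gave 44 of 5653 genes (0.778%), of which 14 were among the 26. In cluster 1, Pde7b fell by 1.24, Fkbp5 by 1.22, Zbtb16 by 1.59 and Adamts9 by 1.10 on the log2 scale, and Rhoj, Cemip and Morrbid rose by 0.89, 1.23 and 1.55. Cluster 3 made up 19.4 ± 3.96% of members in LPA and 13.9 ± 1.46% in vehicle libraries, without overlap (exact permutation p = 0.1), and held 361 CPM of Pde7b against 1332 and 1351 CPM in clusters 1 and 2, and 843 CPM of Col8a1 against 396 and 209 CPM. Clusters 1 and 2 were 36.8 ± 4.09% against 42.4 ± 1.78% and 17.5 ± 5.55% against 18.5 ± 0.642%, which overlapped.

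Among the 55 genes were further genes that rose, with the elastin gene Eln (log2 1.22, edgeR adjusted p = 0.00514) and the retinoic acid receptor gene Rarb (0.52, edgeR adjusted p = 0.0246). Of 8 tested retinoic acid genes there, Stra6 and Rarb rose and 0 fell (median 0.31), where 0.698% of all genes tested were called. In cluster 1 alone 0 of 8 were called, and in all members with a term for sex 0 of 12. Stra6 was at 1.20 in cluster 1 (edgeR adjusted p = 0.281) and 1.22 with the term for sex (edgeR adjusted p = 0.0503). It was a leading gene of cluster 3, and the part of cluster shares in these calls was not tested. Genes that fell included the protocadherin gene Fat4 (-0.93, edgeR adjusted p = 0.0246), Ptgds (-0.79, edgeR adjusted p = 0.0249) and the cyclic nucleotide phosphodiesterase genes Pde10a (-0.94, edgeR adjusted p = 0.0249) and Pde11a (-0.99, edgeR adjusted p = 0.0276), while Pde1c rose (0.89, edgeR adjusted p = 0.0280). The oligodendrocyte genes Mbp (-0.68) and Mobp (-0.71) were called too, and the 8 oligodendrocyte genes summed to 820 ± 128 CPM in LPA and 1250 ± 185 CPM in vehicle libraries in these clusters. The list was also lower in LPA outside the meningeal classes (6946 ± 290 against 8429 ± 422 CPM) and in Slc47a1-free nuclei (3645 ± 470 against 4880 ± 126 CPM). Ptgds was at 2093 CPM in Slc47a1-free nuclei, which were 3.38% of nuclei in LPA and 6.96% in vehicle libraries. The part of RNA from other nuclei in the falls of Mbp, Mobp and Ptgds was not tested. Genes of this paragraph were chosen after their values were seen.

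Most lists had few or no calls in the members after LPA, and 26 of 10383 genes tested (0.25%) were called in all. Few or no calls in a list therefore do not set it apart from other genes. Of 42 tested collagen and matrix genes 2 were higher and 1 lower (median 0.10), of 24 transporter genes 0 and 1 (median -0.04), of 12 retinoic acid genes 1 and 0 (median 0.0035), of 25 growth factor genes 1 and 0 (median 0.02), and of 24 junction and adhesion genes 0 and 1 (median 0.13). Meningeal fibroblast genes had 1 higher (Cemip) of 18 and arachnoid barrier genes 1 lower (Gjb6) of 12. None was called among 30 genes of BMP, TGF-beta and Wnt signalling, 29 meningeal transcription factor genes, 19 genes of cytokines and inflammation, 12 Yap and Tead genes, 6 LPA receptor and metabolism genes and 5 cell division genes by edgeR, with medians between -0.03 and 0.18. Lists for other cell types (endothelium, mural cells, astrocytes, oligodendrocytes and their precursors, neurons, microglia, border macrophages, ependyma and choroid plexus) and for the dura had no call. The list for pia and perivascular fibroblasts had Lama1. Microglia genes had a median of 0.67 over 7 genes and summed to 204 ± 96.9 CPM in LPA and 135 ± 45.5 CPM in vehicle libraries, which overlapped (exact permutation p = 0.4).

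In Slc47a1-free meningeal nuclei of the same 6 libraries 206 of 12624 genes were called (1.63%). There were 35 calls without LPA 3, 78 without vehicle 3, 14 with Bnc2 alone as the gate, 96 with a term for sex and 408 without Scrublet doublets. Genes of other cell types were among them. Gfap, of astrocytes and ependyma, was at 88.2, 84.2 and 90.6 CPM in LPA and at 25.3, 19.4 and 16.1 CPM in vehicle libraries (log2 2.14, edgeR adjusted p = 1.01e-05), and the cluster that led with Dnah12 and Gfap was 8.93% to 9.94% of meningeal nuclei in LPA and 2.76% to 3.76% in vehicle libraries. Of 6 tested choroid plexus genes 1 was higher (Htr2c) and 0 lower, with a sum of 1235 ± 394 against 553 ± 264 CPM, which overlapped, and of 8 oligodendrocyte genes 0 were higher and 2 lower, with a sum of 3645 ± 470 against 4880 ± 126 CPM. Their part in the 206 calls was not tested. The same animals stand behind both fits, and values are therefore set side by side. Of the 26 genes called in members, 5 were also called in Slc47a1-free nuclei. Fkbp5 was at -0.82 in members and -1.09 in Slc47a1-free nuclei on the log2 scale, Zbtb16 at -1.09 and -1.16, and Adamts9 at -1.09 and -0.69. Lhfpl2 was at 0.66 and 0.57, and Slc6a20a at -2.26 and -0.43. In the members of clusters 1 to 3 alone Lhfpl2 was not called. Pde7b was at -1.03 and 0.06, Rhoj at 0.89 and 0.05, and Cemip at 0.94 and -0.38, called in members and not in Slc47a1-free nuclei.

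A class by treatment term tested whether the response differed, and 18 of 12577 genes were called (0.143%). With Bnc2 alone as the gate 2 of the 18 were called, Lrmda among them, and Pde7b, Cemip, St6galnac5 and Tmtc1 were not. Without vehicle 3 the calls kept were 2 of the 18, Pde7b and Cemip, and without LPA 3 there were 6. Pde7b differed by -1.10 ± 0.12 SE on the log2 scale (edgeR adjusted p = 0.000663), with 404, 433 and 422 CPM in the Slc47a1-free nuclei of LPA and 386, 392 and 430 CPM in those of vehicle libraries, where the groups overlapped. Cemip differed by 1.31 ± 0.15 (edgeR adjusted p = 0.00102). St6galnac5, a sialyltransferase gene, differed by -1.36 ± 0.18 (edgeR adjusted p = 0.00277), Lrmda by 1.08 ± 0.16 (edgeR adjusted p = 0.0103) and Tmtc1, a mannosyltransferase gene, by 0.76 ± 0.12 (edgeR adjusted p = 0.0215). Tmtc1 was at 1448, 1568 and 1499 CPM in the members of LPA and at 1066, 1221 and 1260 CPM in those of vehicle libraries, and at 311 to 344 and 400 to 460 CPM in Slc47a1-free nuclei. Rhoj, Robo2, Thsd7b, Abtb2 and Lama1 were also among the 18 genes, while the terms for Fkbp5 (0.26) and Zbtb16 (0.08) were not called.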

How the data were processed

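The authors sorted NeuN-negative nuclei, prepared libraries with the 10x Genomics 3′ v3 kit targeting 10000 nuclei, and counted reads with Cell Ranger 4.0.0 on mm10 with a pre-mRNA reference, which takes in intronic reads. The deposited values are raw UMI counts for 32285 genes, not normalized by the authors. Gene positions were taken from GENCODE M21. Groups and replicate numbers were taken from the labels.

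The members and gene lists were chosen with earlier results of these data known. UMIs were summed per library and class and fitted with edgeR 4.0.16 (R 4.3.3; TMM factors, its default filter for low counts, quasi-likelihood test, Benjamini-Hochberg adjustment), after a test on simulated data. Mitochondrial genes and genes of the rule were left out of the calls. CPM are UMIs per 1e6 UMIs of the class in a library, and for genes named from a fit (normalized CPM) the totals were scaled by the TMM factors, whereas levels by list, cluster or UMI bin and those of Slc47a1, LPA receptors and Enpp2 were not scaled. Doublets were called with Scrublet per library at an expected rate of 0.08 and kept, except in an alternative. Clusters came from scanpy 1.11.5 and leidenalg 0.10.2 (Python 3.11.15; 2000 variable genes, 20 principal components, 20 neighbors, resolution 0.5).

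Genes were named by rule. After LPA these were the 12 DEGs of lowest p in each direction without overlap of the libraries. Between classes they were the 15 largest differences in each direction with 6 of 6 libraries alike and a mean of at least 20 UMIs per library in the higher class. For the difference of responses they were the 5 genes of lowest p. Up to 4 genes of lowest p were taken from a list, and others were named after their values were seen. Some genes that these choices would name are not reported here. Sex was not in the labels. Reads of Xist and 4 genes of the Y chromosome put LPA 1, vehicle 1 and vehicle 3 on the male side. Alternatives were other filters, limits, gates and scalings, DESeq2 1.42.0, a replicate block, a term for sex and leaving out each library.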

Additional observations from a re-analysis of the deposited data

Results flagged for a closer look

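The response to LPA differed between Slc47a1 and Slc47a1-free nuclei for 18 genes by the class by treatment term, of which the 5 of lowest p are given here, in log2 units of the LPA effect in Slc47a1 nuclei less that in Slc47a1-free nuclei. The term was -1.10 for Pde7b, 1.31 for Cemip, -1.36 for St6galnac5, 1.08 for Lrmda and 0.76 for Tmtc1. With Bnc2 alone as the gate only Lrmda of these 5 was called, and without vehicle 3 only Pde7b and Cemip. St6galnac5 was at 124, 138 and 150 CPM in the members of LPA and at 159, 176 and 213 CPM in those of vehicle libraries, and at 200, 155 and 197 CPM against 78.3, 110 and 94.8 CPM in Slc47a1-free nuclei. Lrmda was at 109, 194 and 137 CPM against 98.1, 98.9 and 80.5 CPM in members, and at 418, 521 and 452 CPM against 654, 618 and 594 CPM in Slc47a1-free nuclei. The groups did not overlap in either class for these 2 genes, in opposite directions.

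Nuclei outside the comparisons also carried Slc47a1. In all, 347 nuclei met every condition for Slc47a1 nuclei but the one on Tnr. Their oligodendrocyte precursor genes summed to 3202 CPM, neuronal genes to 4941 CPM and meningeal fibroblast genes to 3609 CPM, against 797, 2063 and 9233 CPM in members.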

How the results depend on the processing

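The replicate numbers do not pair the libraries by the values (correlations of same-numbered libraries 0.12, 0.19 and -0.06). With a replicate block 25 genes were called in Slc47a1 nuclei and 114 in Slc47a1-free nuclei, against 26 and 206 without it. The share of Slc47a1 nuclei was lower in LPA under each alternative run, with a difference of -1.37 percentage points after thinning to 2000 UMIs, -1.23 in clusters 1 to 3 and -1.92 without the Tnr condition, against -1.61 as reported. With Bnc2 alone as the gate the part among meningeal nuclei differed by -4.27 percentage points, against -1.01.

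In Slc47a1 nuclei 17 genes were called with an upper limit on UMIs, 16 without the Tnr condition, 9 with a term for sex, 71 without the filter on low counts, 55 in clusters 1 to 3 and 44 in cluster 1. Leaving out 1 library gave 5 to 24 calls (5 without LPA 1, 7 without vehicle 1, 17 without vehicle 2 and 5 without vehicle 3). Pde7b, Adamts9, Rhoj, Cemip and Morrbid were called under each of the 20 alternatives. The term for sex also kept Zbtb16, Lmo4, Adamts5 and Slc6a20a. Fkbp5 was not called with it (log2 -0.80, edgeR adjusted p = 0.0735). Over the 26 genes, 345 values kept their call and 167 lost it, none with another sign.

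In Slc47a1-free nuclei 390 genes were called without the mitochondrial filter, 364 with an upper limit on UMIs, 408 without Scrublet doublets, 14 with Bnc2 alone, 321 without the Tnr condition, 397 without the filter on low counts and 96 with a term for sex. Leaving out 1 library gave 35 to 189 (98 without LPA 2, 35 without LPA 3, 121 without vehicle 2, 78 without vehicle 3). Between classes the calls were 2212 without Scrublet doublets, 930 with Bnc2 alone, 2958 with clusters 1 to 3 alone and 1891 without the filter on low counts, against 1413. The term between classes gave 30, 2 and 156 calls without Scrublet doublets, with Bnc2 alone and without the filter, and 2 to 18 on leaving out 1 library (11 without LPA 2, 6 without LPA 3, 2 without vehicle 3). The choices on Tnr and on clusters were made after seeing the data. The causes of these moves were not tested. With 3 libraries a group the exact permutation test used for shares cannot pass 0.05. Whether the number of nuclei limits the calls for genes of few UMIs was not tested.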

Other observations

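Of 1929 nuclei with at least 2 Slc47a1 UMIs, 545 were not members: 441 had over 1 UMI of Tnr, 111 over 1 UMI of the mural genes, 82 over 1 UMI of Flt1 and 35 under 2 UMIs of Bnc2, Slc6a13 and Col1a2, with some nuclei failing more than 1 condition. The 142 meningeal nuclei with 1 Slc47a1 UMI had 739 CPM of Adamtsl3 and 160 CPM of Slc26a7, against 1329 and 368 CPM in members and 42.0 and 10.7 CPM in Slc47a1-free nuclei. Their Aldh1a2 stood at 42.2 CPM, against 221 CPM in Slc47a1-free nuclei.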
